A study of Arabidopsis thaliana with 36 samples.

Results

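The genes described here are the tau (GSTU) and phi (GSTF) glutathione transferases of Arabidopsis thaliana. They were chosen as 38 listed loci, GSTU1 to GSTU28 and GSTF2, GSTF3, GSTF6, GSTF7, GSTF8, GSTF9, GSTF10, GSTF11, GSTF12 and GSTF14, among the 32833 loci of the count tables. Of the 38, 37 had at least 10 counts in any 3 libraries. GSTU15 (AT1G59670) did not, with 14 counts over all 36 libraries, and GSTU21 (AT1G78360), the next lowest, had 204. The list comprised 28 tau and 10 phi members, and its rule names loci and sets no threshold on a measured value. It leaves out some phi loci and was drawn up with earlier results of these data known.

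RNA was profiled by 3′ digital gene expression in whole seedlings, so that a read marks the 3′ part of a transcript. Col is the wild type, fls2 lacks the receptor kinase for flg22, a peptide of bacterial flagellin, and stp1/4/13 is a triple mutant of the hexose importers STP1, STP4 and STP13. Seedlings from sucrose agar, 6 days old, spent 1 day in liquid medium holding 25 mM sucrose, then received 1 µM flg22 and were collected after 2, 10 or 24 h. In the sugar experiment, all 3 groups were Col at 24 h, titled Suc_0mM, Suc_25mM and 2DG_1mM, where 2DG is 2-deoxy-D-glucose, a glucose analogue that is phosphorylated but not used further in glycolysis. The labels' protocol gives liquid medium without sucrose for the 2DG treatment. Each of the 12 groups had 3 libraries, and the design text names 3 independent trials. Every flg22 group received flg22 and sucrose. With no mock-treated group to compare with, the receptor mutant stands for the background, and a difference from fls2 includes any effect of that genotype without flg22. Where a gene is said below to rise or fall in a comparison, a difference between its groups is meant, as no level before treatment was measured. The alleles of the mutants are not given in the sources used here.

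Glutathione transferases join the thiol of glutathione to reactive or foreign compounds, and the conjugates are then moved into the vacuole and broken down. Tau and phi are the plant classes with the most members. Some members detoxify herbicides and other xenobiotics, some take part in making camalexin and glucosinolates, which are defence compounds of the mustard family, and some bind or carry compounds such as flavonoids without changing them. Many are used as markers of the response to oxidants, pathogens, salicylic acid or oxylipins.

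Facts of the whole series that bear on these genes were as follows. Total counts per library were 17229303 to 19618995 at 2 h, 15994904 to 20111338 at 24 h, 9462067 to 11309472 at 10 h and 8054500 to 12881741 in the sugar experiment. FLS2 (AT5G46330) reached at most 0.203 CPM (the count divided by the library's TMM-scaled total, in the usual unit of that name) in the fls2 libraries and was at least 12.9 CPM in the Col and stp1/4/13 libraries given flg22. STP1 (AT1G11260), STP4 (AT3G19930) and STP13 (AT5G26340) were each lower in every stp1/4/13 library than in every Col library of the same time. In 4 libraries, Col replicate 3 and stp1/4/13 replicate 3 at 2 h and Col replicate 3 and fls2 replicate 3 at 24 h, the profile correlated more closely with a library of another group than, on average, with those of its own. The 8 root markers summed to 253 to 254 CPM in fls2 at 2 h and 221 to 271 at 10 h, against 241 to 297 and 84.0 to 95.2 in Col and 206 to 258 and 58.1 to 70.8 in stp1/4/13. At 24 h they summed to 225 to 267 CPM in fls2, 99.7 to 160.4 in Col and 71.6 to 104 in stp1/4/13, with 6 of 8 called lower in Col than in fls2 and 8 of 8 lower in stp1/4/13 than in fls2. They summed to 40.9 to 85.5 CPM in Suc_0mM, 131 to 184 in Suc_25mM and 3.75 to 8.52 in 2DG_1mM. The 6 green tissue markers summed to 13009.5 to 19734 CPM in fls2 and 4622 to 7880.0 in Col at 2 h, and to 22433 to 36790.5 in Suc_0mM and 5228 to 10831 in 2DG_1mM. For the 6 sugar libraries titled Suc_25mM or 2DG_1mM, the treatment label names the other group, so the Suc_25mM and 2DG_1mM values here, in the shares and in the plots would be exchanged under that label. No marker of either list was at 0 in all libraries of a group except 1 root marker in Col and in stp1/4/13 at 10 h and in 2DG_1mM. The part of these marker shifts in the results below was not tested.

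In the genome, 25 of the 38 members lay in 8 runs of neighbouring members on one strand, with at most 1 other protein-coding gene between them (TAIR10.1 annotation). The longest run held 7 members, GSTU7, GSTU6, GSTU5, GSTU4, GSTU3, GSTU2 and GSTU1 on chromosome 2, and the next held 5, GSTU23, GSTU22, GSTU21, GSTU20 and GSTU19 on chromosome 1. GSTF2 and GSTF3 were identical at 94.5% of coding bases and GSTF6 and GSTF7 at 94.3%, followed by GSTU1 and GSTU2 at 85.5%. In the last 500 bases of the transcripts, which 3′ reads come from, a 50-base stretch was shared exactly with another annotated gene in only 2 members, GSTU17 (4.88% of its stretches, with GSTU18) and GSTF6 (0.887%, with GSTF7), and no such stretch was found in the other 36. In that annotation 11 members overlapped another gene, 4 of them on the same strand (GSTU10, GSTU17, GSTU18 and GSTF8), and while the libraries keep strand, the strand setting of the counting is not given in the sources used here. The values of these 11 are less certain for that reason. Among them, GSTU17 and GSTU18 overlapped each other, so the counts of this pair may not be independent.

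The stretches of 250 bases before the annotated gene starts of 5 members are shown because these members carry the contrasts described below. GSTF7 was higher in Col than in fls2 at all 3 times, and GSTU12 had the largest log2 fold change at 2 h. GSTU24 and GSTU25 are neighbours with opposite calls in Col against fls2 at 10 h, where that of GSTU24 was lost in some alternatives. GSTU20 was lower in Col than in fls2 at all 3 times. Capitals mark TGACG, the core bound by TGA factors, and TTGACC or TTGACT, the W-box bound by WRKY factors, on either strand. The sequences were read from the RefSeq genome TAIR10.1 and run 5′ to 3′ on the gene's strand.
GSTF7 (AT1G02920), chr1:659981-660230, minus strand: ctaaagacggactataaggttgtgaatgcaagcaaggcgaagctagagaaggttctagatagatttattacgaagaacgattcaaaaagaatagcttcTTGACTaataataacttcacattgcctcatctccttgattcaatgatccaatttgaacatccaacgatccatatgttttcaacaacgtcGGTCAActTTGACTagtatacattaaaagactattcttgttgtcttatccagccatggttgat
GSTU12 (AT1G69920), chr1:26335631-26335880, minus strand: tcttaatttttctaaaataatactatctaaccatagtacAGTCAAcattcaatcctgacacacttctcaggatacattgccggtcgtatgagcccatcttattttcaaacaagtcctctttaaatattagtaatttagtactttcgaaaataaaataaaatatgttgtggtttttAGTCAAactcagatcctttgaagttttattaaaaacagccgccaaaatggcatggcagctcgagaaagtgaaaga
GSTU24 (AT1G17170), chr1:5869293-5869542, plus strand: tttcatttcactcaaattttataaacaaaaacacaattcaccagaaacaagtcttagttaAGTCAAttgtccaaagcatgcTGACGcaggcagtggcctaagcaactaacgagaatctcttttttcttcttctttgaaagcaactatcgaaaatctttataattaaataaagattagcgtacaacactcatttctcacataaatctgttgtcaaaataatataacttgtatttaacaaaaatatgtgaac
GSTU25 (AT1G17180), chr1:5871774-5872023, plus strand: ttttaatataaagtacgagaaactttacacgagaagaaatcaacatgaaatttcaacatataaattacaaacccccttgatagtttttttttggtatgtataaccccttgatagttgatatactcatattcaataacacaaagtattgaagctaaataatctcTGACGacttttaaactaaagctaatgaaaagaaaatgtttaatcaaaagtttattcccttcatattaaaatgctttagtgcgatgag
GSTU20 (AT1G78370), chr1:29485390-29485639, minus strand: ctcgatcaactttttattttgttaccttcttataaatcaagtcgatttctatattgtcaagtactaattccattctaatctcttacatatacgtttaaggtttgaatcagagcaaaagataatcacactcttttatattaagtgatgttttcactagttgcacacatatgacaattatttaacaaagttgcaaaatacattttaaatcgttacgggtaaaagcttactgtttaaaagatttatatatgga

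From 250 bases before to 50 after the gene start, a window of 300 bases, TGACG on either strand was found in 16 of the 38 members (42.1%) and in 23.1% of 27443 protein-coding genes. TTGACC or TTGACT was found in 21 members (55.3%) and in 32.4% of all. Both motifs hold the letters TGAC, but the same TGAC cannot match both on one strand. The longer TGACGTCA, which holds TGACG on both strands, was found in 1 member, GSTU7, and in 0.627% of all. A match is a description of these letters in this window, and its absence says nothing about a factor.

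Together the 38 members took 2.0% of all counts in Col at 2 h after flg22 (1.86 to 2.27% over the 3 libraries), 2.77% at 10 h and 1.58% at 24 h. At the same times they took 0.880%, 0.696% and 1.03% in fls2, and in stp1/4/13 1.73%, 2.18% and 0.930%. Col lay above fls2 in every library at each time. At 24 h the stp1/4/13 libraries (0.873 to 0.964%) and the fls2 libraries (0.969 to 1.14%) lay close together, and their TMM-scaled sums overlapped. The classes differed in this respect. Tau members took 0.157 to 0.206% in stp1/4/13 and 0.363 to 0.420% in fls2, with no overlap. Phi members took 0.704 to 0.807% in stp1/4/13 and 0.567 to 0.720% in fls2, and these ranges overlapped. In the sugar experiment the share was 0.419% in Suc_0mM (0.273 to 0.562%), 1.07% in Suc_25mM (0.973 to 1.19%) and 1.83% in 2DG_1mM (1.66 to 2.09%), with no overlap between the 3 groups. GSTF2 and GSTF10 were among the 5 members with the most CPM in all 12 groups. The shares were given no test. The 10 h and sugar libraries stand in another count table than those of 2 h and 24 h and were scaled separately.

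**Figure D1:**
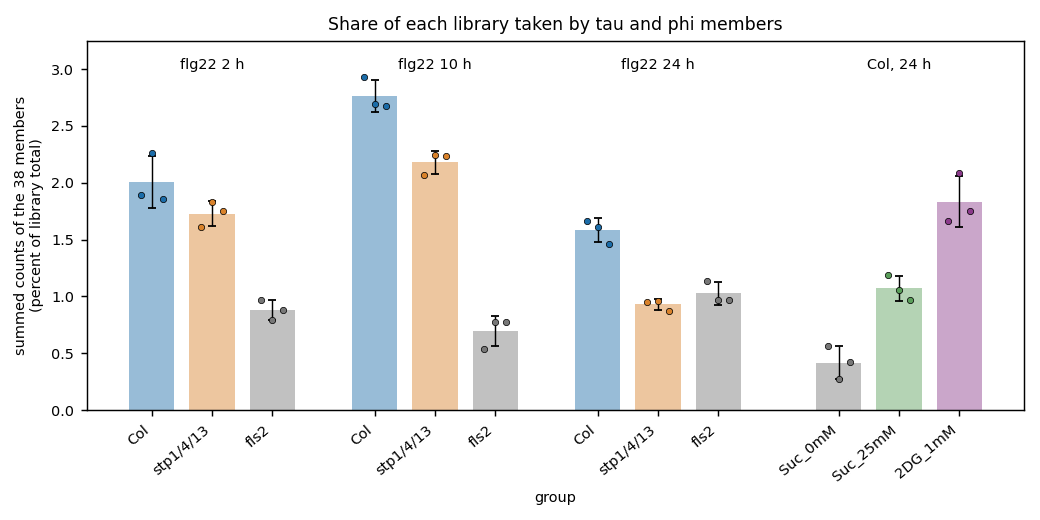
Share of each library's counts taken by the 38 members, in percent (vertical axis, from 0), for the 12 groups (horizontal axis). Bars are means of 3 libraries, lines the SD and points single libraries. The Col libraries at 10 h reach 2.68 to 2.93% and the Suc_0mM libraries 0.273 to 0.562%.

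At 2 h after flg22, most of the family was higher in Col than in fls2. Of 37 members tested, 19 were higher and 3 lower in Col, against 18.7% higher and 16.1% lower among all 21463 genes tested (edgeR quasi-likelihood test, two-sided, Benjamini-Hochberg adjusted p below 0.05, n = 3 libraries per group here and below). The median log2 fold change of the members was 0.91, and of all genes -0.02. In whole seedlings, fewer cells of a type and less RNA per cell cannot be told apart.

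GSTU12 (AT1G69920) had 237, 204 and 143 CPM in the 3 Col libraries and 2.69, 0.637 and 1.42 in fls2. Every Col library lay far above every fls2 library, with the largest log2 fold change of the family (6.93 ± 0.47, adjusted p = 4.02e-09). Its neighbour GSTU11 (AT1G69930) had 43.3, 32.0 and 87.0 CPM in Col and 0.539, 0.579 and 1.06 in fls2 (6.19 ± 0.75, adjusted p = 3.75e-06). GSTU4 (AT2G29460) had 371, 318 and 216 CPM in Col and 29.9, 16.0 and 26.1 in fls2 (3.65 ± 0.37, adjusted p = 4.95e-07). In all 3 of these tau genes the genotypes did not overlap.

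Of the 10 phi members, 6 were higher. GSTF6 (AT1G02930), which conjugates glutathione to indole-3-acetonitrile on the way to camalexin, had 3399, 4458 and 3832 CPM in Col and 387, 369 and 261 in fls2 (3.52 ± 0.24, adjusted p = 3.68e-09). GSTF7 (AT1G02920), its near copy next to it, had 1503, 1575 and 1308 CPM in Col and 166, 104 and 104 in fls2 (3.55 ± 0.23, adjusted p = 2.86e-09). GSTF3 (AT2G02930) had 23.7, 30.0 and 27.3 CPM in Col and 0.970, 1.1 and 1.42 in fls2 (4.53 ± 0.37, adjusted p = 3.59e-08). Its near copy GSTF2 (AT4G02520), a protein that binds auxin-type and indole compounds, had a high level in fls2 as well. It had 2812, 3654 and 2544 CPM in Col and 1047, 1329 and 835 in fls2, a smaller difference of 1.49 ± 0.25 (adjusted p = 0.000148). GSTF8 (AT2G47730), a long-used marker of early stress responses, rose by 1.89 ± 0.27 (adjusted p = 2.21e-05), and GSTF10 (AT2G30870) by 1.15 ± 0.17 (adjusted p = 4.06e-05). GSTF9 (AT2G30860), which stands next to GSTF10, had 1206, 1799 and 1524 CPM in Col and 1239, 1014 and 1191 in fls2 and did not pass (0.40 ± 0.19, adjusted p = 0.12).

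Several tau members of known role rose by about 1 log2 unit at 2 h. GSTU13 (AT1G27130), linked to the indole glucosinolate pathway in pathogen defence, had 167, 187 and 179 CPM in Col and 62.8, 81.3 and 74.1 in fls2 (1.29 ± 0.15, adjusted p = 1.72e-06). GSTU17 (AT1G10370), also named ERD9 and known as a regulator of drought and light responses, had 1067, 1095 and 1255 CPM in Col and 675, 571 and 516 in fls2 (0.96 ± 0.23, adjusted p = 0.00304). GSTU25 (AT1G17180), able with GSTU24 to detoxify trinitrotoluene, had 66.1, 66.1 and 32.7 CPM in Col and 25.3, 22.5 and 19.5 in fls2 (1.29 ± 0.30, adjusted p = 0.00217). The calls of GSTU5 (0.91), GSTU6 (1.33) and GSTU7 (0.78) were each lost when single libraries were left out. Plain library totals in place of TMM gave 17 higher calls, and 16 higher calls held in every alternative.

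Lower in Col at 2 h were GSTU20, GSTU18 and GSTU16. GSTU20 (AT1G78370), which has been linked to jasmonate signalling and aliphatic glucosinolate synthesis, had 213, 185 and 192 CPM in Col and 472, 292 and 445 in fls2 (-1.03 ± 0.25, adjusted p = 0.00363). GSTU18 (AT1G10360) had 2.70, 2.95 and 1.87 CPM in Col and 6.03, 5.91 and 5.98 in fls2 (-1.25 ± 0.33, adjusted p = 0.00651). GSTU16 (AT1G59700) had 11.6, 9.89 and 10.7 CPM in Col and 24.7, 21.1 and 16.8 in fls2 (-0.96 ± 0.19, adjusted p = 0.000748). All 3 were lower in every Col library than in every fls2 library, while the neighbour of GSTU18, GSTU17, rose. GSTU17 and GSTU18 overlap each other on the same strand, so their counts may not be independent. GSTU19 (AT1G78380), the tau enzyme known for high activity towards model substrates and herbicides, was abundant in both genotypes, with 1869, 1930.4 and 1723 CPM in Col and 1537, 1657 and 1396 in fls2, and did not pass (0.27 ± 0.20, adjusted p = 0.33).

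**Figure D2:**
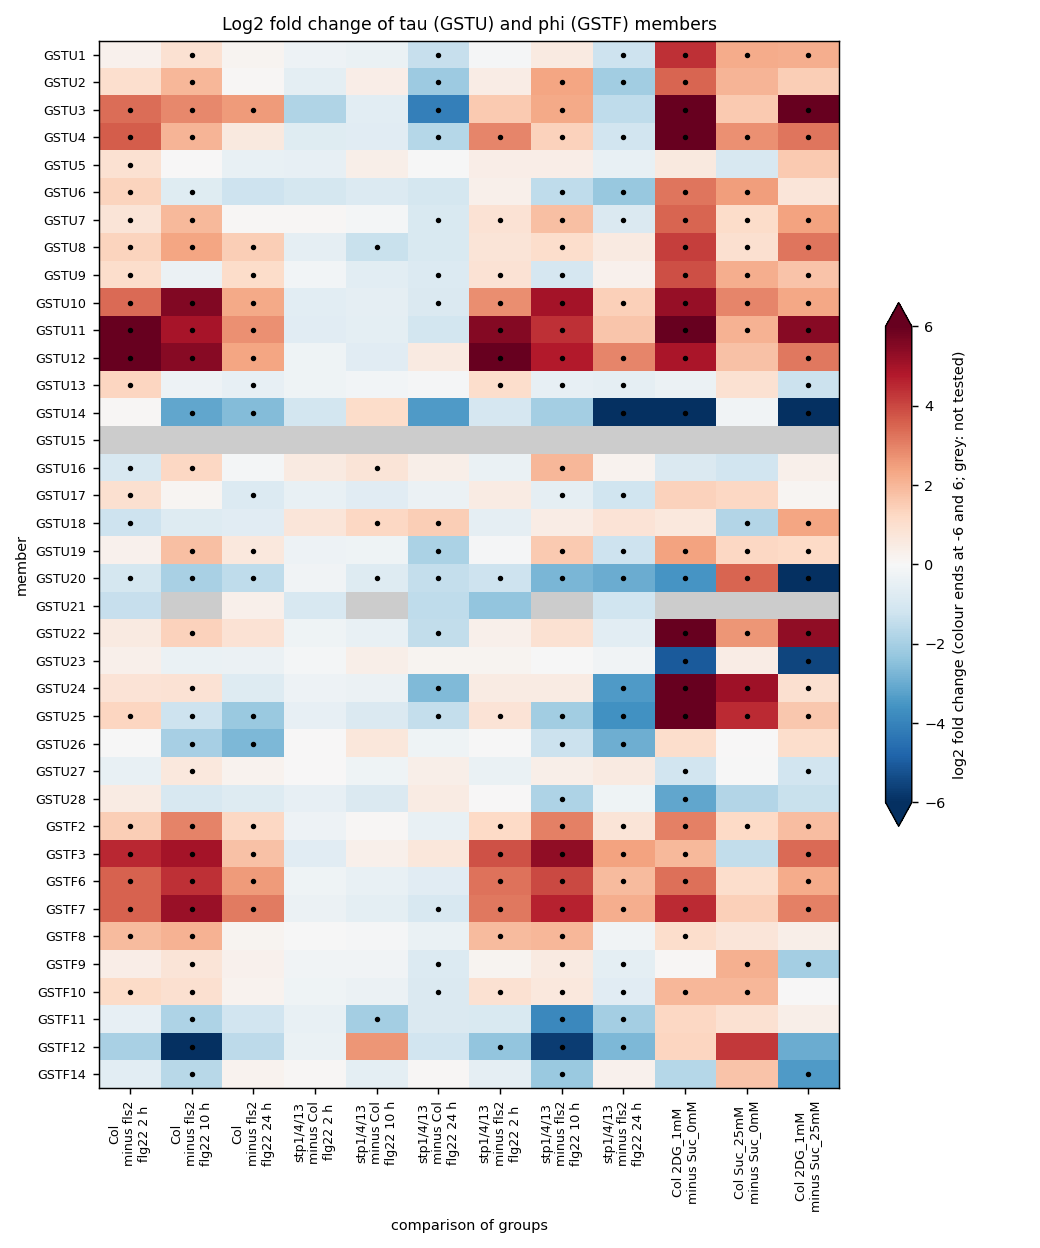
Log2 fold change of each of the 38 members (rows) in the 12 comparisons of groups (columns), with red higher and blue lower in the first-named group and colours ending at -6 and 6. A dot marks an adjusted p below 0.05 and grey a member not tested. Red dominates the Col minus fls2 columns at 2 h and 10 h and the 2DG_1mM minus Suc_0mM column. Blue dominates the stp1/4/13 minus Col column at 24 h.

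At 10 h more members differed between Col and fls2, in both directions. Of 36 tested, 21 were higher and 8 lower in Col, against 24.9% and 26.4% of all 19561 genes. The share of lower members was near that of all genes. The median log2 fold change was 0.89, and -0.07 over all genes.

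GSTU10 (AT1G74590) had 25.4, 16.3 and 21.0 CPM in Col at 10 h and 0.302, 0.745 and 0.280 in fls2 (5.55 ± 0.38, adjusted p = 2.86e-09), the largest rise at this time. GSTU12 had 73.7, 54.8 and 71.9 CPM in Col and 0.906, 0.639 and 2.89 in fls2 (5.45 ± 0.32, adjusted p = 5.43e-10). GSTF7 had 3607, 3066 and 3375 CPM in Col and 52.0, 108 and 119 in fls2 (5.17 ± 0.25, adjusted p = 5.5e-11). By CPM, GSTF6 and GSTF7 were at their highest in Col at this time, a ranking across separately scaled count tables that was not tested. GSTF6 had 7024, 6099 and 6207 CPM against 141, 373 and 399 in fls2 (4.40 ± 0.29, adjusted p = 1.76e-09). GSTF3 rose by 5.0 ± 0.42 (adjusted p = 3.48e-08) and GSTU11 by 4.96 ± 0.37 (adjusted p = 8.94e-09). GSTF2 had 5407, 4895 and 5706 CPM in Col and 482, 797 and 764 in fls2 (2.97 ± 0.17, adjusted p = 3.59e-10). In each of these 7 genes, every Col library exceeded every fls2 library.

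Some members passed first at 10 h. GSTU19 had 2758, 2414 and 2160.2 CPM in Col and 568, 807 and 700.3 in fls2 (1.82 ± 0.14, adjusted p = 1.56e-08). GSTF9 had 2714, 2921 and 2612 CPM in Col and 1172, 1887 and 1833 in fls2 (0.75 ± 0.15, adjusted p = 0.000446). GSTU24 (AT1G17170) had 87.0, 79.6 and 107 CPM in Col and 23.9, 42.7 and 83.4 in fls2, where replicate 3 reached the Col range (0.86 ± 0.30, adjusted p = 0.0219). The call of GSTU24 was lost without fls2 replicate 1, without fls2 replicate 2, without Col replicate 3 and in DESeq2. GSTU1, GSTU2, GSTU22 and GSTU27 also passed as higher, with log2 fold changes of 0.93, 1.98, 1.36 and 0.63. The call of GSTU22 was lost without Col replicate 1 or 3 and without fls2 replicate 1 or 2, and that of GSTU27 without Col replicate 2.

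The 8 members lower in Col at 10 h were GSTU6, GSTU14, GSTU20, GSTU25, GSTU26, GSTF11, GSTF12 and GSTF14. The call of GSTU6 (-0.71) was lost without Col replicate 1 or 3, without fls2 replicate 2 and with only the compared groups fitted. GSTF12 (AT5G17220), also known as TT19 and needed for anthocyanin to reach the vacuole, had no count in any Col library at 10 h and 3.52, 5.22 and 3.45 CPM in fls2, 121 counts in all. Taking 3 counts in the group as its limit, it was at least 41.7-fold lower in Col (adjusted p = 1.48e-05). GSTU20 had 222, 231 and 174 CPM in Col and 785, 846 and 822 in fls2 (-1.97 ± 0.14, adjusted p = 3.71e-09). GSTU26 (AT1G17190) had 2.42, 3.75 and 3.19 CPM in Col and 11.7, 14.7 and 10.5 in fls2 (-1.97 ± 0.43, adjusted p = 0.00102). GSTF11 (AT3G03190), associated with aliphatic glucosinolate synthesis, had 1.45, 2.21 and 1.35 CPM in Col and 6.64, 5.32 and 6.16 in fls2 (-1.85 ± 0.43, adjusted p = 0.00175). GSTU25 had 8.90, 6.93 and 8.02 CPM in Col and 12.1, 17.9 and 26.3 in fls2 (-1.24 ± 0.27, adjusted p = 0.000881), the opposite direction to 2 h. GSTU14 (AT1G27140) was near the lower limit of detection in Col, with 0.194, 0.481 and 0 CPM against 3.42, 1.28 and 1.49 in fls2 (-3.13 ± 1.05, adjusted p = 0.0198), and its call was lost without Col replicate 1 or 3 and without fls2 replicate 1.

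At 24 h the family split. Of 37 members tested, 11 were higher and 6 lower in Col, against 11.0% and 7.59% of all genes. The median log2 fold change was 0.18, and 0.01 over all genes. The count of lower members was 3 without Col replicate 2 and 11 without Col replicate 3, one of the libraries whose profile lay nearer another group.

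Higher at 24 h, as at 2 h and 10 h, were GSTU3, GSTU8, GSTU10, GSTU11, GSTU12, GSTF2, GSTF3, GSTF6 and GSTF7. These 3 comparisons use separate libraries. GSTF7 had 1881, 1625 and 1319 CPM in Col at 24 h and 228, 177 and 145 in fls2 (3.13 ± 0.23, adjusted p = 4.82e-08). GSTF6 had 2745, 2652 and 2127 CPM in Col and 494, 470.5 and 304 in fls2 (2.57 ± 0.23, adjusted p = 4.23e-07). GSTU12 had 16.2, 24.9 and 29.3 CPM in Col and 6.07, 4.45 and 2.96 in fls2 (2.39 ± 0.39, adjusted p = 0.00027). GSTU3 (AT2G29470) had 103, 54.0 and 80.4 CPM in Col and 31.0, 2.93 and 6.40 in fls2 (2.56 ± 0.68, adjusted p = 0.0126), and its call was lost without fls2 replicate 2 and without fls2 replicate 3. GSTU11 had 39.3, 65.0 and 20.6 CPM in Col and 12.5, 5.05 and 0.970 in fls2 (2.76 ± 0.60, adjusted p = 0.00348), and its call was lost with only the compared groups fitted. In all these members Col was the higher genotype. GSTU8 (AT3G09270) had 58.3, 80.3 and 155 CPM in Col and 29.5, 31.7 and 44.7 in fls2 (1.47 ± 0.30, adjusted p = 0.00206).

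Lower at 24 h were GSTU13, GSTU14, GSTU17, GSTU20, GSTU25 and GSTU26. GSTU26 had 3.64, 5.84 and 7.52 CPM in Col and 53.2, 25.0 and 32.5 in fls2 (-2.70 ± 0.30, adjusted p = 4.45e-06). GSTU25 had 4.55, 7.44 and 9.23 CPM in Col and 28.1, 36.7 and 33.5 in fls2 (-2.21 ± 0.31, adjusted p = 6.92e-05). GSTU20, lower at all 3 times, had 186, 93.8 and 198 CPM in Col and 583, 374 and 423 in fls2 (-1.53 ± 0.26, adjusted p = 0.00037). The calls of GSTU13 (-0.49), GSTU14 (-2.59) and GSTU17 (-0.82) were each lost without Col replicate 2, those of GSTU13 and GSTU17 also without Col replicate 1, that of GSTU13 without fls2 replicate 1 or 2 and that of GSTU17 without fls2 replicate 3. GSTU24 had 83.3, 88.3 and 89.2 CPM in Col and 149, 175 and 121 in fls2 and did not pass (-0.77 ± 0.34, adjusted p = 0.12). It did pass with the replicate number as a block (adjusted p = 0.0403).

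The difference between 24 h and 2 h was tested itself, as an interaction of genotype and time. It was negative in 12 of 37 members and positive in 0, against 6.04% and 4.50% of all genes, and DESeq2 gave 1 positive member. The median was -0.80, and -0.01 over all genes. GSTU12 had the most negative interaction, -4.54 ± 0.56 log2 units (adjusted p = 0.000116), its Col level going from 237, 204 and 143 CPM to 16.2, 24.9 and 29.3. For GSTU11 it was -3.43 ± 0.92 (adjusted p = 0.0212). For GSTU25 the interaction was -3.50 ± 0.43 (adjusted p = 0.000108), for GSTU4 -3.06 ± 0.49 (adjusted p = 0.000671) and for GSTF3 -2.76 ± 0.48 (adjusted p = 0.00128). In GSTU26 it was -2.66 ± 0.40 (adjusted p = 0.000445), with fls2 itself higher at 24 h (53.2, 25.0 and 32.5 CPM) than at 2 h (14.1, 16.7 and 14.3 CPM). GSTF6 (-0.96 ± 0.30, adjusted p = 0.0521) and GSTF7 (-0.42 ± 0.30, adjusted p = 0.44) did not pass. Without fls2 replicate 2 at 2 h, 8 members were negative.

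**Figure D3:**
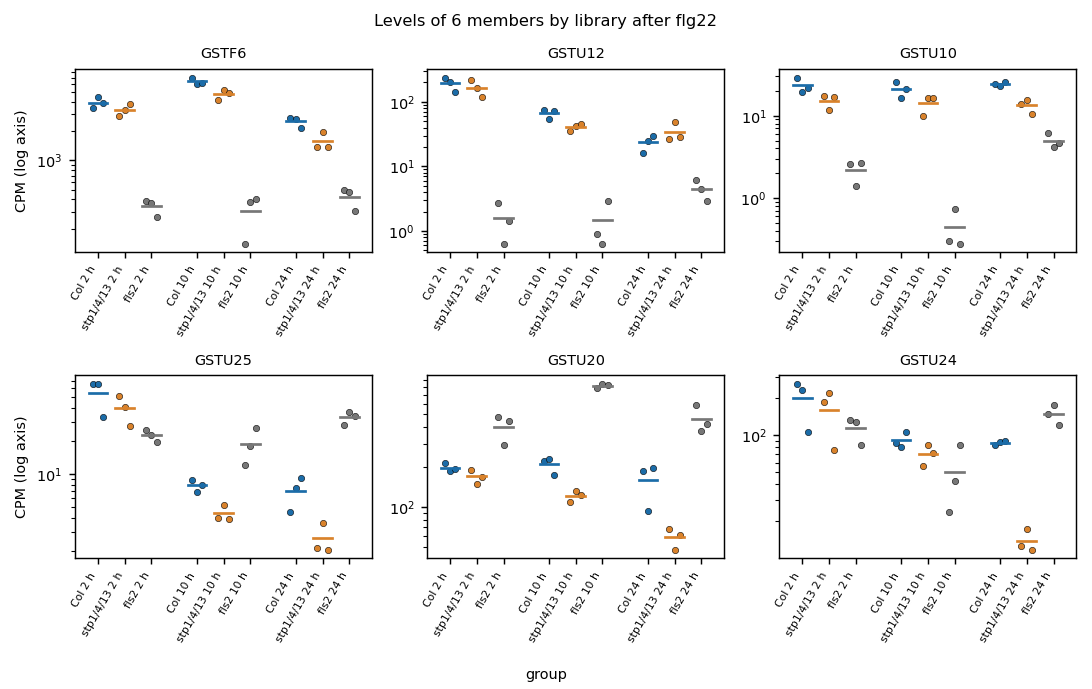
CPM of 6 members (log axis, one panel each) in the 9 flg22 groups, with points for single libraries and bars for the mean of 3. GSTF6, GSTU12 and GSTU10 stay above fls2 in Col and stp1/4/13 at every time, GSTU25 changes from above to below fls2, GSTU20 stays below it, and GSTU24 in stp1/4/13 at 24 h falls to 12.5, 17.4 and 11.8 CPM.

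The triple transporter mutant was compared with Col at each time. At 2 h no member passed, 0 higher and 0 lower of 37, against 0.172% and 0.0466% of all genes by edgeR. DESeq2 also called 0 members. The unadjusted p was under 0.05 in 7 of the 37 members and in 9.06% of all genes. Of the 37 log2 fold changes, 31 were below 0, with a median of -0.32, and -0.01 over all genes. GSTU3 had 6.85, 4.15 and 3.09 CPM in stp1/4/13 and 23.9, 15 and 10.6 in Col (-1.81 ± 0.69, adjusted p = 0.4). GSTU4 had 214, 213 and 124 CPM against 371, 318 and 216 in Col (-0.72 ± 0.34, adjusted p = 0.54), and GSTU10 17.1, 11.8 and 16.9 CPM against 29.0, 19.6 and 21.7 (-0.62 ± 0.23, adjusted p = 0.39).

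At 10 h, 2 members were higher and 3 lower in stp1/4/13 than in Col, against 7.67% and 4.84% of all genes. This split was 1 higher and 6 lower under RLE size factors and 1 higher and 8 lower under plain library totals. With TMM kept, 9 were lower with no filter and 11 with only the compared groups fitted, and DESeq2 gave 8. With the replicate number as a block, 1 was higher and 5 lower. GSTU8 had 37.5, 46.8 and 39.4 CPM in stp1/4/13 and 102, 95.8 and 116 in Col (-1.34 ± 0.15, adjusted p = 2.17e-05). GSTU20 had 109, 131 and 122 CPM against 222, 231 and 174 in Col (-0.79 ± 0.13, adjusted p = 0.00108). Both calls held in every alternative, and no library of one genotype overlapped the other. GSTF11 (-2.04), GSTU16 (0.77) and GSTU18 (1.24) were the other calls. That of GSTU18 was lost with the replicate number as a block (adjusted p = 0.0527), and that of GSTU16 under RLE size factors. That of GSTF11 was lost without stp1/4/13 replicate 1, without stp1/4/13 replicate 2 and without Col replicate 2. The 2 higher calls fell to 1 or 0 without any 1 of the 6 libraries.

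At 24 h much of the family was lower in stp1/4/13. Of 37 members, 15 were lower and 1 higher than in Col, against 4.55% lower and 4.46% higher among all genes. The median log2 fold change was -0.88, and 0.02 over all genes. The lower members were GSTU1, GSTU2, GSTU3, GSTU4, GSTU7, GSTU9, GSTU10, GSTU19, GSTU20, GSTU22, GSTU24, GSTU25, GSTF7, GSTF9 and GSTF10. Their number was 3 when only the compared groups were fitted, 9 without stp1/4/13 replicate 2 and 8 without stp1/4/13 replicate 3. In the same runs, all genes called in either direction numbered 184, 508 and 753, against 1934 in the main fit. GSTU3, GSTU19 and GSTU24 were called in every alternative run. Of the 6 green tissue markers, 5 were called higher in stp1/4/13 than in Col at 24 h, with sums of 12506 to 15427 CPM against 5779 to 9873 and no overlap, and none of the 8 root markers was called. Their part in the lower members was not tested.

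GSTU24 had 12.5, 17.4 and 11.8 CPM in stp1/4/13 at 24 h, 83.3, 88.3 and 89.2 in Col and 149, 175 and 121 in fls2. The mutant lay below both other genotypes in every library, by -2.64 ± 0.36 log2 units against Col (adjusted p = 0.000672) and -3.41 ± 0.37 against fls2 (adjusted p = 3.02e-06). GSTU19 had 906, 615 and 528 CPM in stp1/4/13, 2846, 2569.8 and 2103 in Col and 1773, 1620.1 and 1442 in fls2 (-1.88 ± 0.21, adjusted p = 9.65e-05 against Col). GSTU3 had 4.17, 1.97 and 7.90 CPM in stp1/4/13 and 103, 54.0 and 80.4 in Col (-4.09 ± 0.74, adjusted p = 0.00438). In these 3 members the stp1/4/13 and Col libraries did not overlap.

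Among the members lower at 24 h in fewer alternatives, GSTU4 had 21.4, 13.9 and 30.2 CPM in stp1/4/13 and 63.2, 51.6 and 100.5 in Col (-1.72 ± 0.35, adjusted p = 0.00787). GSTU2 (AT2G29480) had 7.98, 4.14 and 2.28 CPM against 38.7, 12.6 and 13.4 (-2.17 ± 0.54, adjusted p = 0.0222), GSTU7 (AT2G29420) 80.9, 80.3 and 96.0 against 208, 125 and 155 (-0.92 ± 0.25, adjusted p = 0.0285), and GSTU25 2.14, 3.60 and 2.05 against 4.55, 7.44 and 9.23 (-1.44 ± 0.33, adjusted p = 0.015). GSTU20 had 68.6, 47.5 and 61.5 CPM against 186, 93.8 and 198 (-1.43 ± 0.26, adjusted p = 0.00437) and was the member lower in stp1/4/13 at both 10 h and 24 h. GSTF10 had 1442, 1207 and 891 CPM against 2202, 2287 and 2009 (-0.88 ± 0.17, adjusted p = 0.00714), and GSTF9 1135, 853 and 769 against 1902, 1628 and 1332 (-0.82 ± 0.19, adjusted p = 0.0167). The call of GSTF9 was lost without Col replicate 1, without Col replicate 2, without stp1/4/13 replicate 2 and without stp1/4/13 replicate 3. The calls of GSTU2 and GSTU7 were lost without Col replicate 1 and without stp1/4/13 replicate 2 or 3, that of GSTU7 also without stp1/4/13 replicate 1, and that of GSTU25 without Col replicate 2 and without stp1/4/13 replicate 3. GSTU14 had 25 counts in Col and 2 in stp1/4/13, a ratio of 0.0776 with a 95% counting interval of 0.00891 to 0.311, and did not pass (adjusted p = 0.0628).

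GSTU18 was the exception at 24 h, with 13.0, 15 and 16.0 CPM in stp1/4/13, 2.85, 5.17 and 7.87 in Col and 9.31, 8.84 and 7.18 in fls2 (1.46 ± 0.32, adjusted p = 0.0112 against Col). Its call was lost without Col replicate 1 and without Col replicate 2. GSTF6 had 1371, 1965 and 1359 CPM in stp1/4/13 and 2745, 2652 and 2127 in Col and did not pass (-0.68 ± 0.22, adjusted p = 0.0554), whereas its near copy GSTF7 was called, with 656, 892 and 925 CPM against 1881, 1625 and 1319 (-0.96 ± 0.21, adjusted p = 0.0126). Without Col replicate 1 the call of GSTF7 was lost too. Whether the pair differed in this contrast was not tested.

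The change of the stp1/4/13 minus Col difference from 2 h to 24 h passed in none of 37 members by edgeR, against 0.0186% positive and 0.00932% negative of all genes, so a difference between these times is not shown at this threshold. The unadjusted p was under 0.05 in 13 of the 37 members and in 6.84% of all genes. The median was -0.45 (0.0 over all genes), and DESeq2 called 2 members. With the replicate number as a block, GSTU19 (-1.55, adjusted p = 0.0116) and GSTU24 (-2.36, adjusted p = 0.0117) were negative. Without the block GSTU19 was at -1.56 ± 0.29, adjusted p = 0.0784 and GSTU24 at -2.33 ± 0.48, adjusted p = 0.2. The same pair passed without stp1/4/13 replicate 3 at 2 h.

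**Figure D4:**
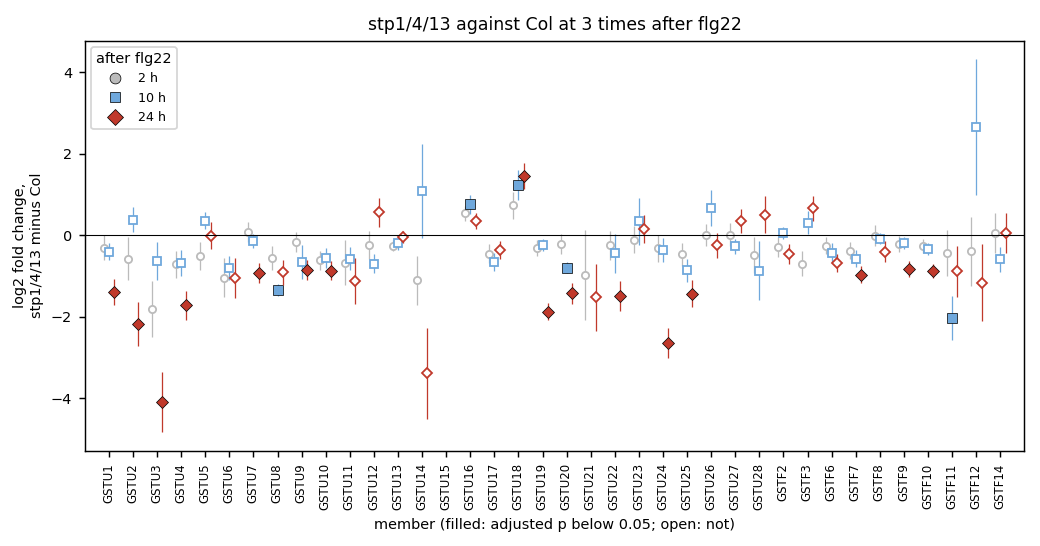
Log2 fold change of stp1/4/13 minus Col (vertical axis) for each member (horizontal axis) at 2 h, 10 h and 24 h after flg22, with lines for the standard error. Filled symbols have an adjusted p below 0.05. The 24 h values of 15 members are filled and below 0, and that of GSTU18 is filled and above it.

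In stp1/4/13, more members were called above fls2 than below it at 2 h and 10 h, and more below than above at 24 h. These comparisons share the stp1/4/13 or fls2 libraries with those above and are given side by side. At 2 h, 14 members were higher and 2 lower than in fls2 (15.8% and 9.82% of all genes, median 0.45). At 10 h, 17 were higher and 11 lower (26.9% and 25.3%, median 0.54), the share of lower members being near that of all genes, and the lower ones were 7 without stp1/4/13 replicate 3 and 7 without fls2 replicate 3. At 24 h, 6 were higher and 17 lower (11.5% and 8.39%, median -0.57), and the lower ones were 10 without fls2 replicate 1 and 11 without stp1/4/13 replicate 2. The 2 lower members at 2 h were GSTU20 and GSTF12, and the call of GSTF12 (-2.36) was lost without any 1 of the 6 libraries.

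GSTU12 in stp1/4/13 was 6.69 ± 0.47 log2 units above fls2 at 2 h, then 4.75 ± 0.32 at 10 h and finally 2.95 ± 0.39 at 24 h, each with an adjusted p of at most 3e-05. GSTU20 differed from fls2 by -1.25 ± 0.25, -2.76 ± 0.14 and -2.96 ± 0.27 at these times, with 68.6, 47.5 and 61.5 CPM against 583, 374 and 423 at 24 h. GSTU25 went from 0.82 ± 0.29 at 2 h to -2.10 ± 0.28 at 10 h and -3.64 ± 0.34 at 24 h, when it had 2.14, 3.60 and 2.05 CPM in stp1/4/13 and 28.1, 36.7 and 33.5 in fls2. At 2 h its call was lost without stp1/4/13 replicate 1 or 2 and without any fls2 library. GSTU14 was at 2 counts in stp1/4/13 and 156 in fls2 at 24 h, a ratio of 0.0134 with a 95% counting interval of 0.00161 to 0.0493 (adjusted p = 0.000193). The calls of GSTU9 and GSTU28 at 10 h (-1.02 and -1.84) were lost with the replicate number as a block, at adjusted p = 0.11 and 0.0775.

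The sugar experiment asked how transcript levels in Col differed with sucrose or 2DG, with no flg22 named in the titles. Groups follow the sample titles, which the column names of the count table share. For the 6 libraries titled 2DG_1mM or Suc_25mM, the treatment label names the other of these groups, and taking that label would exchange every 2DG_1mM and Suc_25mM value below. Which label is right cannot be told apart from the labels alone.

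With 25 mM sucrose, 16 of 36 members were higher and 1 lower than without, against 6.41% and 6.08% of all 19727 genes tested. The median log2 fold change was 1.35, and 0.04 over all genes. GSTU24 had 186, 171 and 129.8 CPM in Suc_25mM and 4.04, 5.36 and 5.05 in Suc_0mM (5.07 ± 0.35, adjusted p = 4.06e-05). GSTU25 had 52.6, 44.8 and 46.4 CPM against 0.543, 4.66 and 1.26 (4.49 ± 0.69, adjusted p = 0.00201), and GSTU20 345, 384 and 407 against 16.8, 37.3 and 47.9 (3.48 ± 0.42, adjusted p = 0.000532). These 3 rose most and their groups did not overlap. GSTU10 (2.91 ± 0.52, adjusted p = 0.00425), GSTU4 (2.73 ± 0.63, adjusted p = 0.015) and GSTU22 (AT1G78340, 2.67 ± 0.62, adjusted p = 0.0151) followed. The call of GSTU4 was lost without Suc_25mM replicate 1 and without Suc_0mM replicate 3, and that of GSTU22 without Suc_25mM replicate 1.

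GSTU19 had 1775, 1365 and 1687 CPM in Suc_25mM and 656, 716 and 696 in Suc_0mM (1.22 ± 0.19, adjusted p = 0.00193). GSTF9 had 1755, 2071 and 1206 CPM against 393, 342 and 428 (2.11 ± 0.25, adjusted p = 0.000532), and GSTF10 1978, 2177 and 1589 against 544, 430.2 and 491 (1.97 ± 0.29, adjusted p = 0.00147). GSTU18 was the one member lower with sucrose, at 3.77, 7.77 and 6.55 CPM against 24.5, 16.8 and 19.7 (-1.76 ± 0.32, adjusted p = 0.0047). With the replicate number as a block, 3 members were lower. GSTF6 was uneven in Suc_0mM, with 493, 69.8 and 80.2 CPM, and did not pass against Suc_25mM with 571, 504 and 250.4 CPM (1.04 ± 0.63, adjusted p = 0.34). The higher members numbered 10 without Suc_25mM replicate 1 and 20 without Suc_0mM replicate 1, and the lower ones 2 without Suc_0mM replicate 1 and 3 without Suc_0mM replicate 2.

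Under 2DG, 21 of 36 members were higher and 5 lower than in Suc_0mM, against 21.3% and 27.9% of all genes. The median was 2.20, the highest of the 12 comparisons of groups, and -0.21 over all genes. GSTU3 had 215, 407 and 236 CPM in 2DG_1mM and 1.63, 0.0879 and 0.0842 in Suc_0mM (8.82 ± 0.91, adjusted p = 2.05e-05). GSTU22 had 150.1, 142 and 156 CPM against 0.233, 0.0879 and 1.43 (7.97 ± 0.66, adjusted p = 5.03e-06), and GSTU11 179, 373 and 192 against 2.17, 0.791 and 1.01 (7.52 ± 0.58, adjusted p = 3.4e-06). GSTU25 had 212, 184 and 52.3 CPM in 2DG_1mM (6.12 ± 0.74, adjusted p = 5.25e-05), and GSTU24 356, 409 and 183 (6.03 ± 0.36, adjusted p = 7.35e-07). All 5 were far above Suc_0mM in every library.

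The camalexin enzyme GSTF6 had 1716, 2529 and 2042 CPM in 2DG_1mM (3.29 ± 0.68, adjusted p = 0.00191 against Suc_0mM) and GSTF7 1684, 1990.3 and 1846 CPM (4.46 ± 0.70, adjusted p = 0.000331). GSTF2 had 2846, 3652 and 3751 CPM in 2DG_1mM and 479, 361 and 403 in Suc_0mM (3.04 ± 0.27, adjusted p = 8.18e-06). GSTU19, with 3807, 4182 and 3155 CPM, was at its highest level of the 12 groups (2.43 ± 0.19, adjusted p = 4.31e-06 against Suc_0mM). That ranking of the groups spans separately scaled fits and was not tested. GSTU7 had 597, 953 and 511 CPM against 59.3, 58.2 and 66.6 (3.48 ± 0.27, adjusted p = 3.27e-06). GSTU5 (AT2G29450) was uneven in Suc_0mM with 713, 158 and 1013 CPM, had 949, 928 and 951 in 2DG_1mM and did not pass (0.59 ± 0.67, adjusted p = 0.49), and GSTU17, with 269, 42.5 and 413 CPM in Suc_0mM and 553, 612 and 693 in 2DG_1mM, did not pass either (1.36 ± 0.55, adjusted p = 0.0608).

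Lower under 2DG than in Suc_0mM were GSTU14, GSTU20, GSTU23, GSTU27 and GSTU28. GSTU14 had no count in 2DG_1mM and 59 in Suc_0mM, which is at least 15.2-fold lower when 3 counts in the group are the limit (adjusted p = 0.00272). GSTU23 (AT1G78320) had 2 counts in 2DG_1mM and 99 in Suc_0mM, a ratio of 0.0261 with a 95% counting interval of 0.00312 to 0.0968 (adjusted p = 0.000859). GSTU20 had 2.28, 1.71 and 4.93 CPM in 2DG_1mM and 16.8, 37.3 and 47.9 in Suc_0mM (-3.52 ± 0.45, adjusted p = 7.6e-05). GSTU28 (AT1G53680) had 1.68, 1.82 and 3.17 CPM against 6.75, 15.2 and 35.5 (-3.11 ± 0.61, adjusted p = 0.00147). GSTU27 (AT3G43800, -1.16) lost its call without Suc_0mM replicate 1 or 3 and without 2DG_1mM replicate 1.

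Between 2DG and sucrose, 18 of 36 members were higher in 2DG_1mM and 7 in Suc_25mM, against 21.4% and 28% of all genes (median 1.34, and -0.23 over all genes). This comparison shares its libraries with both above. GSTU3 (7.23 ± 0.83, adjusted p = 4.48e-05), GSTU11 (5.45 ± 0.51, adjusted p = 1.27e-05) and GSTU22 (5.30 ± 0.56, adjusted p = 2.52e-05) were higher in 2DG_1mM by the most. GSTU8 had 153, 198 and 201 CPM in 2DG_1mM and 22.1, 22.8 and 14.6 in Suc_25mM (3.21 ± 0.25, adjusted p = 3.92e-06), GSTF3 14.7, 32.6 and 22.8 against 2.40, 1.80 and 2.37 (3.41 ± 0.48, adjusted p = 0.000177), and GSTF7 rose by 3.02 ± 0.66 (adjusted p = 0.00283). The call of GSTU25 (1.64 ± 0.59, adjusted p = 0.0368) was lost with the replicate number as a block (adjusted p = 0.0521), without any Suc_25mM library and without 2DG_1mM replicate 1 or 2.

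Of the 36 members tested, 12 were called higher in all 3 sugar comparisons, namely 2DG over sucrose over no sugar. Called in the opposite direction in at least 1 of them were GSTU13, GSTU14, GSTU18, GSTU20, GSTU23, GSTU27, GSTU28, GSTF9 and GSTF14, and 6 members passed in none. GSTU20 had 345, 384 and 407 CPM in Suc_25mM and 2.28, 1.71 and 4.93 in 2DG_1mM, the largest fall in this comparison (-7.0 ± 0.51, adjusted p = 2.8e-06). GSTF9 had 1755, 2071 and 1206 CPM in Suc_25mM against 338, 523 and 359 in 2DG_1mM (-2.04 ± 0.25, adjusted p = 7.22e-05), while its neighbour GSTF10 had 1978, 2177 and 1589 and 1345, 2886 and 1532 and did not pass (0.01 ± 0.28, adjusted p = 0.99). GSTU13 had 64.2, 64.9 and 55.4 CPM in Suc_25mM and 36.6, 28.1 and 11.5 in 2DG_1mM (-1.28 ± 0.35, adjusted p = 0.0102). GSTU18 was lower in Suc_25mM than in both other groups and higher in 2DG_1mM, with 26.7, 32.2 and 35.7 CPM (2.39 ± 0.33, adjusted p = 0.000139). GSTU14, with no count in 2DG_1mM and 42 in Suc_25mM, was at least 12.6-fold lower. GSTU23 had 2 counts in 2DG_1mM and 117 in Suc_25mM, a ratio of 0.0190 with a 95% counting interval of 0.00227 to 0.0702 (adjusted p = 0.000549). GSTF12 was near the limit of detection without sugar, at 0.0776, 0 and 0.505 CPM, with 5.66, 2.28 and 3.73 CPM in Suc_25mM and 0, 0.214 and 1.29 in 2DG_1mM, and passed in none of the 3 comparisons.

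**Figure D5:**
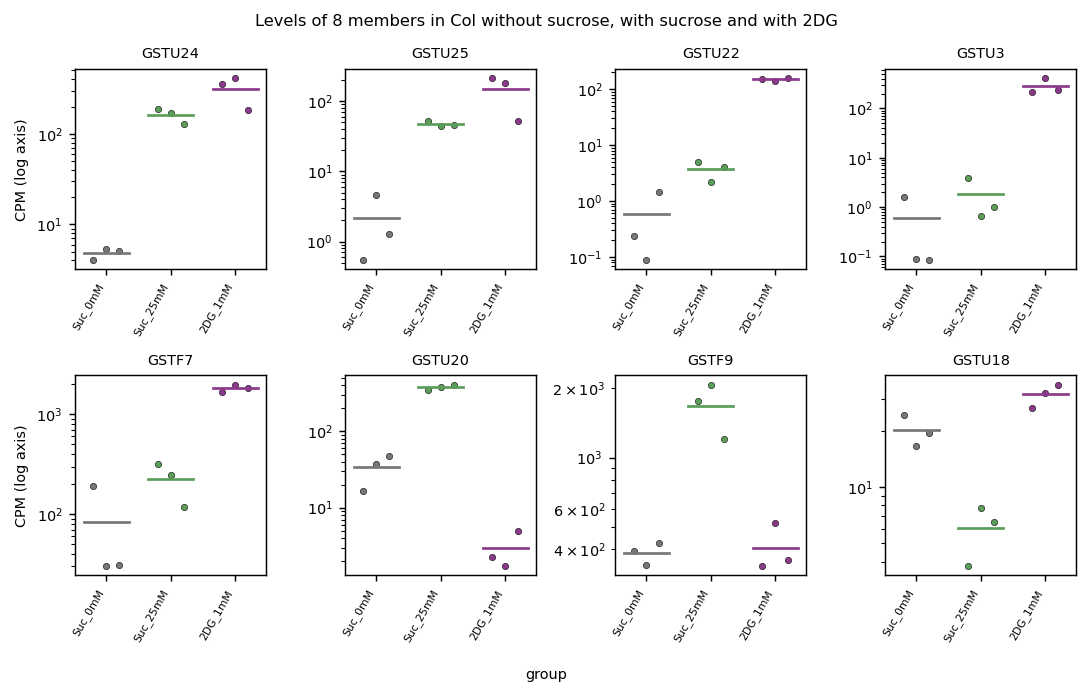
CPM of 8 members (log axis, one panel each) in Suc_0mM, Suc_25mM and 2DG_1mM, with points for single libraries and bars for the mean of 3. GSTU24, GSTU25, GSTU22, GSTU3 and GSTF7 have their highest mean in 2DG_1mM, GSTU20 and GSTF9 in Suc_25mM, and GSTU18 is lowest in Suc_25mM.

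Genes that work with these enzymes were read in the same fits, as lists. Their counts are to be read against the shares of all genes called in the same comparison, as given with the members. Of 15 glutathione transferases of other classes or other phi loci, 3 of 15 were higher and 2 lower in Col than in fls2 at 2 h, near the 18.7% and 16.1% of all genes, with a median of 0.27. GSTL1 (AT5G02780), of the lambda class, rose by 3.42 ± 0.30 at 2 h (adjusted p = 6.27e-08) and was -2.0 ± 0.29 in stp1/4/13 minus Col at 24 h (adjusted p = 0.000946) and 6.30 ± 0.66 under 2DG against Suc_0mM (adjusted p = 2.26e-05). In that last comparison 4 of 13 were higher and 4 lower (median -0.54), where 21.3% and 27.9% of all genes were.

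For glutathione itself, GSH2 (AT5G27380), glutathione synthetase, was higher in Col than in fls2 at 2 h (1.51 ± 0.24, adjusted p = 9.08e-05) and at 10 h (1.26 ± 0.15, adjusted p = 2.23e-06). GSH1 (AT4G23100), which makes gamma-glutamylcysteine, was higher under 2DG (1.34 ± 0.20, adjusted p = 0.000255) and with sucrose (0.88 ± 0.20, adjusted p = 0.0146) than in Suc_0mM. Of the 7 genes of synthesis and recycling, 1 rose and 1 fell at 2 h, close to the shares of all genes, 3 rose and none fell at 10 h (24.9% and 26.4% of all genes), and 3 rose and none fell under 2DG (21.3% and 27.9%). Of 8 tested genes of glutathione and conjugate breakdown, 3 rose and none fell at 2 h. Among them, GGT1 (AT4G39640), an extracellular gamma-glutamyl transpeptidase, rose by 3.96 ± 0.27 (adjusted p = 3.6e-09) and GGP1 (AT4G30530), a gamma-glutamyl peptidase that trims glutathione conjugates on the way to camalexin and glucosinolates, by 1.98 ± 0.19 (adjusted p = 2.28e-07). GGP1 was lower in stp1/4/13 than in Col at 24 h (-0.77 ± 0.18, adjusted p = 0.0174). Of the 6 ABCC vacuolar transporters, 0 were higher and 1 lower at 2 h, and 4 higher and none lower at 10 h. ABCC3 (AT3G13080) was higher with sucrose (1.65 ± 0.28, adjusted p = 0.00358) and under 2DG (1.49 ± 0.28, adjusted p = 0.00117).

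The 16 genes of xenobiotic detoxification and its regulators included glucosyltransferases, cytochromes P450 and oxophytodienoate reductases. In Col against fls2, 9 were higher and none lower at 2 h, 10 higher and 1 lower at 10 h, and 1 higher and 1 lower at 24 h. In stp1/4/13 against Col at 24 h, 7 were lower and none higher, among them UGT74E2 (AT1G05680, -2.54 ± 0.49, adjusted p = 0.00693), CYP81D8 (AT4G37370, -2.48 ± 0.42, adjusted p = 0.00271) and OPR2 (AT1G76690, -2.18 ± 0.31, adjusted p = 0.000753). Under 2DG 12 were higher and none lower than in Suc_0mM (median 3.0), and with sucrose 11 were higher (median 1.81). UGT73B4 (AT2G15490), a glucosyltransferase, was higher in Col at 2 h (3.15 ± 0.31, adjusted p = 3.12e-07) and under 2DG (4.74 ± 0.33, adjusted p = 2.11e-06).

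The pathways in which single members act showed the following. All 6 camalexin genes were higher in Col than in fls2 at each of the 3 times, as was GSTF6. CYP71A12 (AT2G30750) rose by 5.45 ± 0.48 at 2 h (adjusted p = 7.26e-08), with the caution that it resembles CYP71A13. In stp1/4/13 against Col, 4 of 6 were lower at 10 h and 1 of 6 at 24 h. That 1 gene, PAD3 (AT3G26830), the last enzyme of camalexin synthesis, was lower in stp1/4/13 than in Col at 24 h (-2.0 ± 0.28, adjusted p = 0.000753). Of the 12 aliphatic glucosinolate genes, 7 were lower and 2 higher in Col at 2 h and 9 lower and 2 higher at 10 h. With sucrose 5 of 11 were higher and none lower, and in 2DG_1mM against Suc_25mM 10 were lower and none higher (median -4.92), the directions of GSTU20. CYP83A1 (AT4G13770), a cytochrome P450 of that pathway, was -7.10 ± 0.66 in that comparison (adjusted p = 1.18e-05). Of the anthocyanin genes tested, 5 of 7 were lower in Col at 2 h and 3 of 3 at 10 h, the time when GSTF12 had no count in Col. LDOX (AT4G22880), anthocyanidin synthase, was -4.55 ± 0.81 at 10 h (adjusted p = 0.000162).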

How the data were processed

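The deposited values are whole-number counts per locus in 2 tables, used as given. Per the labels' protocols, BrAD-seq, a strand-keeping 3′ tag method, was run on 500 ng of total RNA. The submitters' processing notes name fastp 0.19.7, STAR 2.6.1b, featureCounts 1.6.0 and TAIR10, and settings are not given in the sources used here. The authors' counts summed to 8054500 to 20111338 per library, and 3′ tag counts say little about levels between genes.

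Counts were fitted with edgeR 4.0.16 (R 4.3.3; TMM, filterByExpr, quasi-likelihood F test, two-sided, Benjamini-Hochberg over all genes tested, threshold 0.05) in 3 fits of 18 libraries (2 h and 24 h), 9 (10 h) and 9 (sugar), giving 12 comparisons of groups and 2 interactions. No 2 libraries held identical counts. Standard errors are the log2 fold change over the root of F. CPM use each fit's TMM totals. Intervals and floors cover counting error only. The procedure was also run on simulated counts with a single fixed dispersion and no trial effect, which does not test those assumptions. Sequence measures used TAIR10.1 and Biopython 1.88. In that annotation's gene table all 38 members matched by locus, 37 with the same symbol.

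Groups follow the titles. Alternatives were DESeq2 1.42.0, RLE size factors, plain totals, 3 other filters, a replicate block, only the compared groups, each library left out, and groups from the treatment label. The design text names 3 trials, so libraries of one number were taken as one trial. Their deviations from the group means correlated with a median r of 0.248 at 2 h, 0.345 at 24 h, 0.0207 at 10 h and 0.0497 in the sugar experiment, against -0.114, -0.162, -0.00526 and -0.0266 between different numbers. The labels do not tie a number to a trial.

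The members are a fixed list of loci, with no threshold on a measured value, but that list and the pathway lists were drawn up with earlier results of these data known. Values are given for called members with the largest log2 fold changes, members with a described role, and members that went against the others. From each list, genes past the threshold are named.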

Additional observations from a re-analysis of the deposited data

Results flagged for a closer look

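In 12 members the Col minus fls2 log2 fold change was lower at 24 h than at 2 h by the interaction test of edgeR (adjusted p below 0.05). In some the rise of Col over fls2 shrank. GSTU13, GSTU17 and GSTU25 were called higher in Col at 2 h and lower at 24 h, where the calls of GSTU13 and GSTU17 were lost in some alternatives. GSTU6 and GSTU24 had lower means in Col than in fls2 at 24 h but did not pass. GSTU26, not called at 2 h, was called lower in Col at 24 h. The interaction was -4.54 log2 units in GSTU12, -3.50 in GSTU25, -3.43 in GSTU11 and -3.06 in GSTU4. It was -2.76 in GSTF3, -2.66 in GSTU26 and -2.56 in GSTU6. It was -1.78 in GSTU13, -1.78 in GSTU17, -1.71 in GSTF8, -1.57 in GSTU24 and -0.94 in GSTF10. The call of GSTU24 was lost without most single libraries, and those of GSTF10, GSTU6 and GSTU11 without some. The 8 other calls held in every alternative that was run.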

How the results depend on the processing

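Of 236 member calls in all comparisons, 171 held in every alternative, the treatment label aside. Depth limits GSTU14, GSTU15, GSTU21, GSTU23 and GSTF12, with few counts.

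With DESeq2, all genes called numbered 228 (47 by edgeR) for stp1/4/13 minus Col at 2 h, 2971 (1934) at 24 h and 52 (6) for its interaction with time. Members called became 8 lower at 10 h in stp1/4/13 minus Col, 1 lower at 2 h in stp1/4/13 minus fls2, 4 lower with sucrose, 1 positive in the Col minus fls2 interaction and 2 negative in the other. With RLE size factors, stp1/4/13 minus Col at 10 h gave 1 higher and 6 lower members, and its interaction 3 genes. With plain totals, it gave 1 higher and 8 lower, the interaction 1 negative member, and the summed CPM of stp1/4/13 at 2 h 17289.7. Plain totals moved the median of all genes by up to -0.18. With no filter, 9 members were lower in stp1/4/13 at 10 h and 2 with sucrose, and the strict filter gave 3 genes in the interaction. With the replicate block, stp1/4/13 minus Col gave 126 genes at 2 h, 3227 at 24 h, 1 higher and 5 lower members at 10 h, and 16 genes and 2 members in the interaction, and 3 members were lower with sucrose. Beyond these and the calls named above, the block changed no count of members by over 1.5 times. With only the compared groups, there were 27 genes at 2 h, 184 at 24 h with 0 higher and 3 lower members, 11 lower members at 10 h and 2 genes in the interaction. Col minus fls2 at 24 h then gave 2090 genes, and sucrose 2 lower members. These fits have fewer samples.

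Leaving out single libraries gave the following ranges. For Col minus fls2, all genes called were 5969 to 6659 at 2 h, 8811 to 9739 at 10 h and 2679 to 5099 at 24 h, and lower members at 24 h 3 to 11. For stp1/4/13 minus Col, all genes were 8 to 56, 1307 to 1708 and 450 to 3740, higher members 0 to 1 at 10 h and 0 to 1 at 24 h, and lower members 2 to 3 and 8 to 15. For stp1/4/13 minus fls2, lower members were 1 to 3, 7 to 11 and 10 to 17. For sucrose, all genes were 1277 to 2214, higher members 10 to 20 and lower ones 1 to 3. For the interactions, members were 0 to 1 positive and 8 to 13 negative with Col minus fls2, and genes 1 to 25 and negative members 0 to 2 with stp1/4/13 minus Col. GSTU24 in stp1/4/13 minus Col at 2 h ranged from -0.62 (without Col replicate 3) to 0.025 (without stp1/4/13 replicate 3).

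With groups from the treatment label, 2DG minus Suc_0mM gave 2463 genes and 1 lower member, sucrose 9697 genes and 5 lower members, and 2DG minus sucrose 7 higher and 18 lower members. GSTF3, GSTU20 and GSTU23 under 2DG against no sugar became -1.48, 3.48 and 0.46, and GSTU18 and GSTU20 with sucrose 0.63 and -3.52. Between 2DG and sucrose, GSTF14, GSTF2, GSTF3, GSTF6, GSTF7 and GSTF9 became 3.42, -1.83, -3.41, -2.25, -3.02 and 2.04. GSTU1, GSTU3, GSTU4, GSTU7, GSTU8 and GSTU9 became -2.16, -7.23, -3.22, -2.40, -3.21 and -1.72. GSTU10, GSTU11, GSTU12, GSTU13, GSTU14, GSTU18, GSTU19 and GSTU20 became -2.30, -5.45, -3.16, 1.28, 6.87, -2.39, -1.21 and 7.0. GSTU22, GSTU23, GSTU24, GSTU25 and GSTU27 became -5.30, 5.50, -0.96, -1.64 and 1.15. The value for GSTU14 is fitted on a group with 0 counts and measures no fold. The same libraries were fitted under exchanged names, and that exchange itself gives the counts and values of this paragraph. The cause of the shifts under the other alternatives was not tested.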
